A study of Caenorhabditis elegans with 2 samples.

Results

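The peptide genes of Caenorhabditis elegans described here are the 141 protein-coding genes named nlp, flp or ins followed by a number, with daf-28 added, out of 19973 protein-coding genes on the 6 chromosomes. They were chosen by name alone and comprise 71 nlp genes, 31 flp genes and 39 insulin-like genes, daf-28 among the last. Binding of the transcription factor PHA-4 was profiled by chromatin immunoprecipitation and sequencing (ChIP-seq) in whole larvae of the fourth larval stage (L4), males and hermaphrodites together. All animals were of strain OP37, which has the unc-119(ed3) mutation on chromosome III and the insertion wgIs37 that supplies eGFP-tagged PHA-4. There was 1 group of 2 biological replicates, so no condition could be compared with another.

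Peptide genes encode secreted messengers. The flp genes encode precursors of FMRFamide-like neuropeptides, the nlp genes encode other neuropeptide-like precursors, and the ins genes with daf-28 encode insulin-like ligands of the receptor DAF-2. Most are made by neurons, and some by the intestine or the epidermis. PHA-4 is the FoxA factor that specifies the pharynx and is also expressed in the intestine and the somatic gonad. In whole animals, a region bound in few cells and a region bound weakly in many cells cannot be told apart.

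The measure is the strongest PHA-4 region in the promoter window of each gene, which began 1000 bp before an annotated 5' end and closed 200 bp after it. A gene was given every region whose summit fell in such a window. Signal is the authors' value for a region, on a scale that is not stated. The pooled list held 30000 regions, background included, with signals from 2.41 to 226 and a median of 5.07. Its strongest 1484 regions, down to a signal of 25.9, formed the list kept by the irreproducible discovery rate (IDR) procedure. The lists of replicate 1 and replicate 2 held 21039 and 20807 regions. Read depth is unknown, since the files give no counts.

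The sequences at the strongest summits of 6 members are shown first, because the results turn on how few such places there were. Each is 101 bases of the plus strand of ce11 (WBcel235), read from the RefSeq assembly and centred on the summit, whose base is in capitals. A longer run in capitals is a match to TGATAA, the GATA-type sequence, read on the minus strand. The first is the only member region in the IDR list. The next 3 are the strongest below it on chromosomes X and II, and the last 2 are the other GATA-type match and a summit in a tandem repeat.
ins-39 at chrX:1344981-1345081: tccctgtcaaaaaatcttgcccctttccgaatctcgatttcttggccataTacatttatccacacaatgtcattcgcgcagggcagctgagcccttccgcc
nlp-76 at chrX:12664585-12664685: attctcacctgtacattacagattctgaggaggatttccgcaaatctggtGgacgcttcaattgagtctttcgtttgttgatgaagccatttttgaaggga
ins-12 at chrII:5553715-5553815: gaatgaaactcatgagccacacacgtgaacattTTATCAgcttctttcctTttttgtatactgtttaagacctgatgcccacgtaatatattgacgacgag
nlp-2 at chrX:2344943-2345043: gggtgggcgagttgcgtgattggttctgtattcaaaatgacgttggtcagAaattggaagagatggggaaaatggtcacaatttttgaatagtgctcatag
nlp-14 at chrX:8919497-8919597: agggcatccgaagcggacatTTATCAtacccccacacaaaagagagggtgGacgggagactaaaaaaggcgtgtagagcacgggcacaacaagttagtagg
nlp-81 at chrIV:3176502-3176602: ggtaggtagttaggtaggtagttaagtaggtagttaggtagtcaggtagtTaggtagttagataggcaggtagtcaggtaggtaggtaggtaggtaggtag

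Peptide genes had few PHA-4 regions in the IDR list, among the strongest 6000 and in the whole pooled list. Of the 141 genes, 1 had an IDR region, which is 0.709% (exact 95% interval 0.0180 to 3.89%), where 6.24% of all protein-coding genes had one. Among the strongest 6000 pooled regions, which reach down to a signal of 11.4, 3 members had a region (2.13%, 0.441 to 6.09%), against 19.6% of all genes. With the whole pooled list, 23 members had one (16.3%, 10.6 to 23.5%), against 45% of all genes. The intervals cover the counting of genes alone and not the spread between replicates. No test was run, and the shares are a description beside those of all genes.

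All 3 families lay below the whole set of genes in those 3 counts. In the strongest 250 and 500 regions the insulin-like family lay above it, through ins-39 alone (1 of 39, 2.56%, against 1.12% and 2.21% of all genes). Any pooled region was found for 11 nlp genes (15.5%, 7.996 to 26.03%), 7 flp genes (22.6%, 9.59 to 41.1%) and 5 insulin-like genes (12.8%, 4.30 to 27.4%). The intervals of the 3 families overlapped. Among the strongest 6000 regions there were 2 nlp genes (2.82%), 1 insulin-like gene (2.56%) and 0 of 31 flp genes. The exact interval of the last reaches 11.2%. The strongest flp region ranked 13087 of 30000. The order of the families was not the same in the replicates. Replicate 1 had a region at 5 nlp genes (7.04%), 2 flp genes (6.45%) and 4 insulin-like genes (10.3%). In replicate 2 there were 12 nlp genes (16.9%), 5 flp genes (16.1%) and 3 insulin-like genes (7.69%). No family was thus highest in all lists, and these counts are small.

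**Figure D1:**
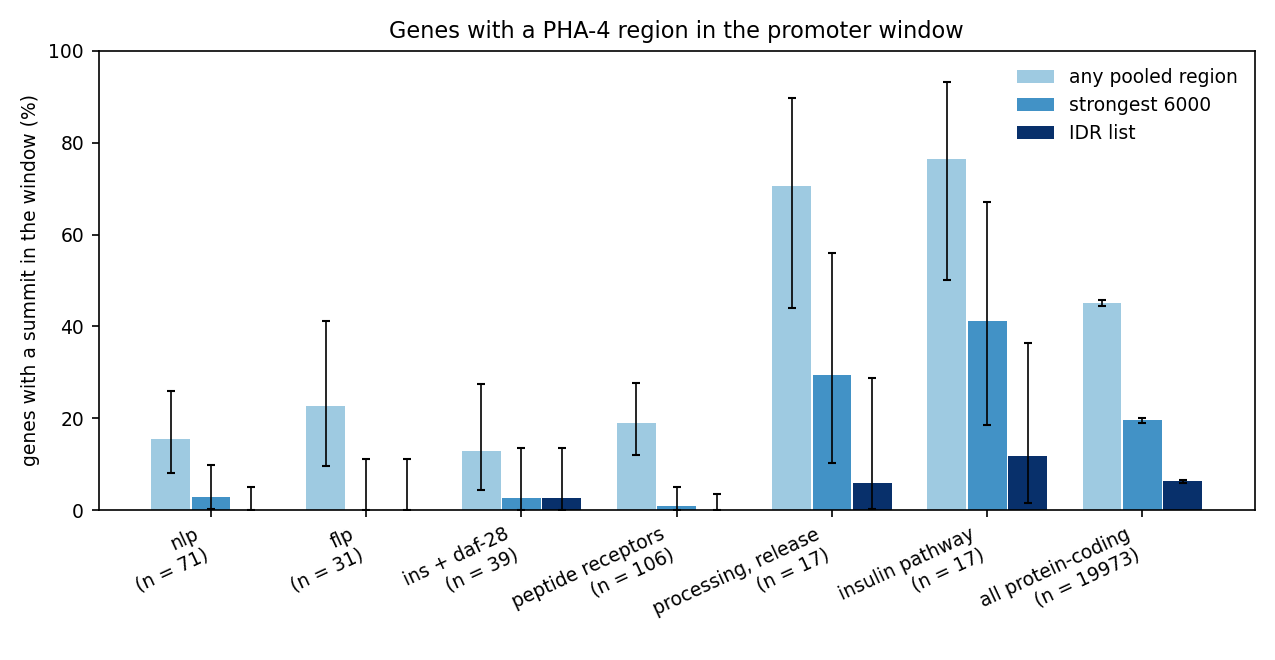
Share of genes (%) with a PHA-4 summit in the promoter window, for each peptide family, 3 lists of genes with related roles and all protein-coding genes. Bars stand for any pooled region, the strongest 6000 and the IDR list, with exact 95% binomial intervals; any-region bars reach 15.5% (nlp), 22.6% (flp) and 12.8% (insulin-like) against 45% of all genes.

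The regions that members did have were mostly weak. The strongest signal per gene had a median of 4.04 over the 23 members with a region, at a median rank of 19065. Over the 8994 protein-coding genes with a region it was 9.48, at a median rank of 7450. By family the medians were 4.09 for nlp, 3.36 for flp and 7.18 for insulin-like genes. Of the 23 members, 6 ranked in the strongest 10000 regions and 15 ranked below 15000. Of the 8994 genes with a region, 5303 ranked in the strongest 10000 and 6479 in the strongest 15000.

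**Figure D2:**
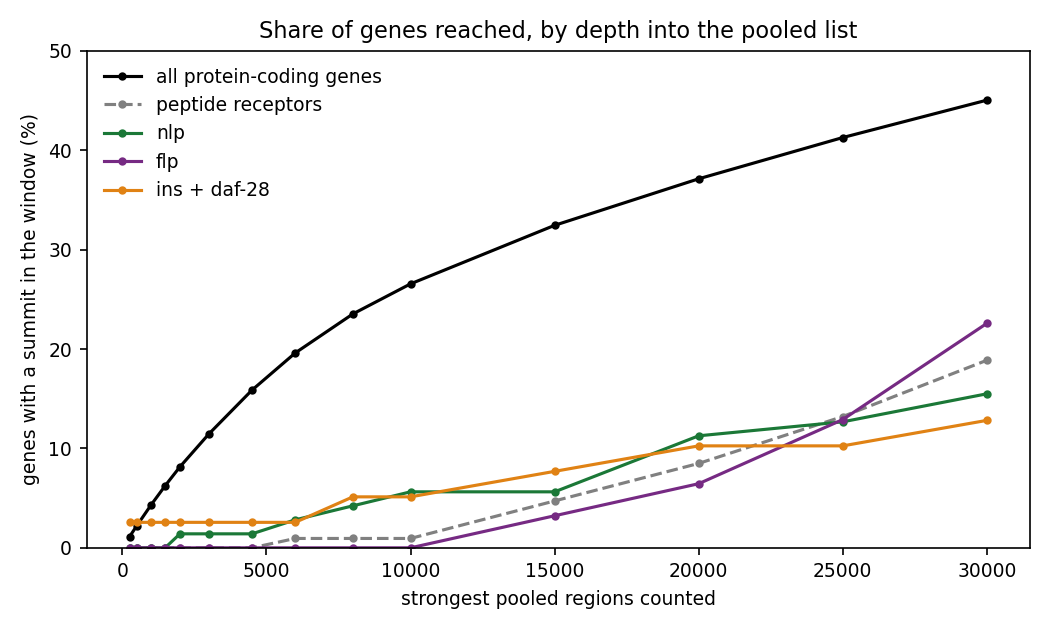
Share of genes (%) with a summit in the promoter window as more of the pooled list is counted, from the strongest 250 regions to all 30000 (x axis). The flp line stays at 0 through the strongest 10000 regions, and at 30000 regions the family lines end between 12.8% and 22.6%, under the 45% of all protein-coding genes; the insulin-like line lies above that of all genes at 250 and 500 regions, through 1 gene.

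Insulin-like genes held the strongest member region, at ins-39. The gene ins-39 (WBGene00017668, chrX:1343758-1344421, minus strand) encodes a predicted insulin-like ligand. Its region at chrX:1344876-1345185 had a pooled signal of 60.5 at rank 73, with 33.3 in replicate 1 (rank 81) and 25.4 in replicate 2 (rank 173). Both replicates thus placed it among their strongest regions. The summit lay 610 bp upstream of the only annotated 5' end, outside protein-coding genes and in no other gene's window. The next pooled signal in the family was 9.53, at ins-12.

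The other insulin-like regions were weak and differed between replicates. The region of ins-12 at chrII:5553610-5553919 (852 bp upstream) ranked 7415, with 7.42 in replicate 1 and none in replicate 2. That of ins-33 (864 bp upstream) had a pooled signal of 7.18 at rank 10269, with 2.52 in replicate 1 and 2.04 at another summit of the window in replicate 2. The region of ins-24 had 3.89, with 5.82 in replicate 1 and none in replicate 2. For ins-13 the pooled signal was 2.48 at rank 29438, with none in either replicate, and the summit lay in the 3' UTR of acdh-2. Of these, ins-39 alone had a region of both replicates at the pooled summit.

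Apart from ins-33, described above, the well-known insulin-like genes listed as having no strong region had no region in their windows in any list. These were daf-28 and ins-6, ligands that activate DAF-2 and promote reproductive growth, ins-7, an activating ligand made in the intestine, and ins-1 and ins-18, described as antagonists of the receptor. The nearest pooled summit was 3110 bp from a 5' end of daf-28, 1104 bp for ins-1, 2903 bp for ins-7, 4178 bp for ins-18 and 17696 bp for ins-6. In all, 34 of the 39 insulin-like genes had no pooled region and 33 had no region in any list. Of all protein-coding genes, 45% had a pooled region and 47.6% had no region in any list. The group of ins-2, ins-3, ins-4, ins-5, ins-6 and ins-20, which lie together on chromosome II, had 0 pooled summits in 24.8 kb. Replicate 2 had 1 summit there and replicate 1 had 0. The group of ins-28, ins-29, ins-25, ins-27, ins-24, ins-30 and ins-26 on chromosome I had 3 pooled summits in 27.4 kb, none of them in the IDR list. Not all such groups were sparse: ins-13, ins-12 and ins-11 on chromosome II had 8 pooled summits in 14.7 kb, 2 of them in the IDR list. That of ins-21, ins-22 and ins-23 on chromosome III had 0 in 6.945 kb. Counts for runs of other genes are not given here.

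Among nlp genes, nlp-4 stood highest. Its region had a pooled signal of 23.4 at rank 1876, with 12.2 in replicate 1 (rank 2140) and 10.04 in replicate 2 (rank 2543). The value lies just under the weakest IDR region, at 25.9. The summit was 49 bp upstream of nlp-4 (WBGene00003742) and 275 bp upstream of exos-3, which encodes a subunit of the RNA-degrading exosome, so the region cannot be given to 1 gene. The region of nlp-76 (WBGene00045386) at chrX:12664480-12664789 had 11.4, at rank 5997 and so just inside the strongest 6000. The signal was 7.49 in replicate 1 and 3.49 in replicate 2. The summit lay 732 bp upstream, within a coding exon of the nuclear receptor gene nhr-17. A second region of nlp-76, in its 5' UTR, had a signal of 3.54.

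The intestinal peptide gene nlp-40 had a weak promoter region and a stronger one behind the gene. NLP-40 is released by the intestine and drives the defecation rhythm through the receptor AEX-2. The promoter region had a pooled signal of 9.05 at rank 7870, with 5.18 in replicate 1 and 2.41 in replicate 2, and lay 289 bp upstream in a window shared with homt-1. An IDR region of signal 28.4 (17.8 in replicate 1 and 11.9 in replicate 2) lay 1887 bp downstream of the nearest 5' end of nlp-40, with its summit beyond the last base of the gene. That region was in no promoter window of a protein-coding gene.

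The genes nlp-2 and nlp-45 were each seen in 1 replicate. The region of nlp-2, which encodes peptides that end in RPamide, had a pooled signal of 8.29 and 7.22 in replicate 2, with none in replicate 1. That of nlp-45 had 4.27, with 3.75 in replicate 2 at another summit. Both summits lay in introns of T01B6.1, in a group of nlp-45, nlp-22, nlp-23 and nlp-2 that held 3 pooled summits in 9.17 kb. The remaining nlp signals ran from 2.60 at nlp-17 to 4.09 at nlp-81. In the window of nlp-81 printed above, GGTA occurred 15 times. Neither replicate had a region at that summit, and replicate 1 had 2.30 elsewhere in the window. The orcokinin gene nlp-14 had 3.39 and no region in either replicate.

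Epidermal antimicrobial nlp genes had no region in any list. None of nlp-24, nlp-25 and nlp-27 to nlp-34 had one, which is 0 of 10 genes, with an exact interval up to 30.8%. Among all protein-coding genes, 45% had a pooled region and 47.6% had no region in any list. The group of nlp-34, nlp-31, nlp-30, nlp-29, nlp-28 and nlp-27 held no summit of the pooled list or of either replicate in 12.9 kb. Genes of this group, nlp-29 among them, are induced in the epidermis by fungal infection and wounding. No region was found for nlp-12 either, a cholecystokinin-like peptide gene of the neuron DVA, whose 5' end was 1290 bp from the nearest pooled summit. No gene carried the name nlp-37 in the annotation.

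No flp gene had a region in the strongest 10000. The strongest was that of flp-34, a gene of the neuropeptide Y/F type, with a pooled signal of 5.74 at chrV:1029639-1029948, in one of its own coding exons and 559 bp upstream of an internal 5' end. Replicate 1 had 4.45 at another summit of the window, and replicate 2 had none. The region of flp-10 had 4.19, with 4.86 in replicate 2 away from the pooled summit. That of flp-17 had 3.36, with 3.02 in replicate 2 and none in replicate 1. Both genes encode ligands of EGL-6, a receptor that inhibits egg laying. The region of flp-20, a gene of touch receptor neurons, had 3.64 and no region in either replicate, and flp-23 had 3.03, with 2.23 in replicate 1. Signals of 3.02 at flp-2 and 2.57 at flp-14 closed the list. The group of flp-28, flp-3 and flp-2 on chromosome X held 6 pooled summits in 9.93 kb, 0 of them in the IDR list.

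The well-known flp genes listed as having no strong region had none in their windows in any list. Among them were flp-1, flp-11 of the sleep neuron RIS, flp-13 of the neuron ALA, which acts in sleep after stress, and flp-18 and flp-21, whose peptides are ligands of the receptor NPR-1. Their nearest pooled summits were 778 bp away for flp-1, 4684 bp for flp-11, 8181 bp for flp-13, 6977 bp for flp-18 and 1459 bp for flp-21. In all, 24 of the 31 flp genes had no pooled region and 21 had no region in any list. For all protein-coding genes, 45% had a pooled region and 47.6% had no region in any list.

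**Figure D3:**
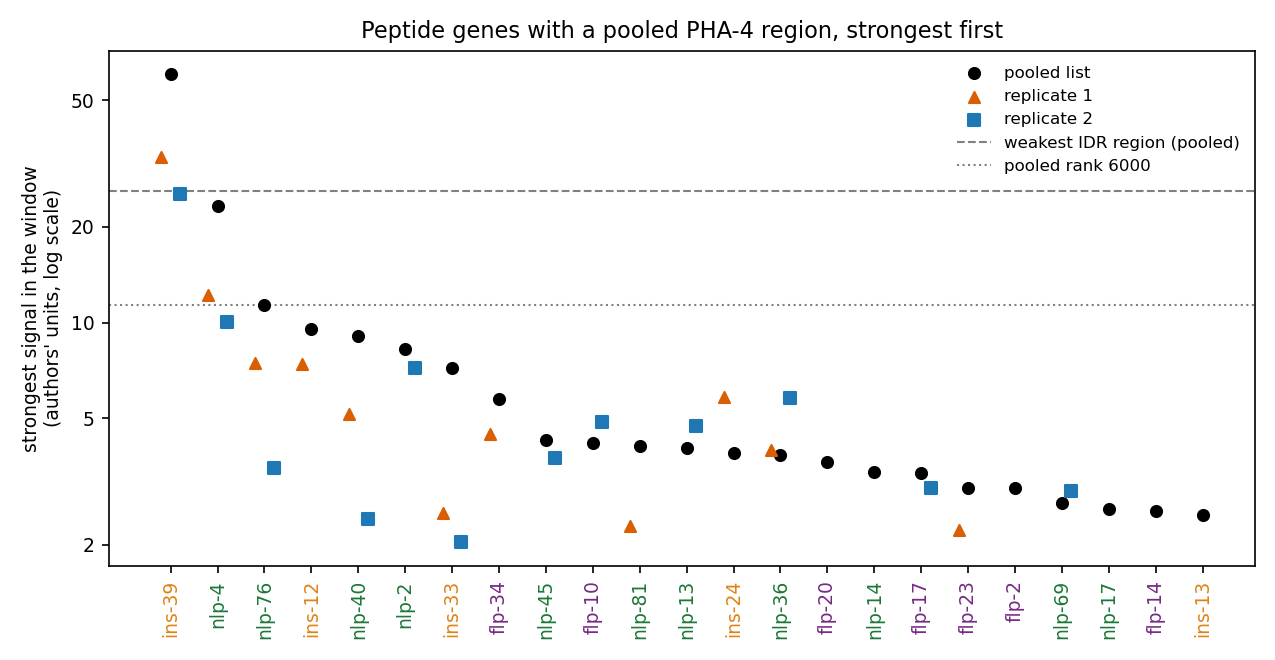
Strongest signal in the promoter window (log scale, authors' units) for the 23 members with a pooled region, in the pooled list and in each replicate; a missing symbol means no region, and gene names are coloured by family (nlp green, flp purple, insulin-like orange). Of the pooled points, ins-39 (60.5) alone lies above the weakest IDR region (25.9), and nlp-4 (23.4) and nlp-76 (11.4) are the only others above rank 6000 (11.4).

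The replicates reached different members. In replicate 1, 11 members had a region (7.80%, against 37% of all genes), and in replicate 2, 20 had one (14.2%, against 37.5%). Regions in both replicates were found for 6 members (4.26%), namely ins-39, nlp-4, nlp-76, nlp-40, ins-33 and nlp-36, against 26.9% of all genes. At 4 of these, all but ins-33 and nlp-36, the regions of both replicates lay within 150 bp of the strongest pooled summit. In nlp-36, whose strongest summit (3.85) lay 62 bp downstream in its coding exon, replicate 2 had 3.27 there and replicate 1 had none. Both replicates had a region at its second pooled summit, of signal 3.49 at 902 bp upstream (3.99 in replicate 1 and 5.81 in replicate 2). Of the 23 members with a pooled region, 5 had one in replicate 1 only, 6 in replicate 2 only and 6 in neither. A further 8 members had a region in replicate 2 alone, with signals from 2.03 at flp-28 to 3.89 at nlp-66, while 0 members without a pooled region had one in replicate 1. Shares of all genes for these splits are not given here, so the splits are not read as particular to members. On chromosome X, 2 of 34 members had a region in replicate 1 (5.88%) and 9 in replicate 2 (26.5%), while the shares of all genes there were 40.4% and 41.96%. No region in any list was found for 110 members (78.01%, against 47.6% of all genes).

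The low share was present on every chromosome. Any pooled region was found for 21.1% of members on chromosome I (53.6% of all genes there), 7.14% on II (43.8%), 17.6% on III (58.2%), 12.5% on V (31.6%) and 20.6% on X (49.8%), and for 4 of 19 members on IV (44.6% of all genes there). Members also differed from other genes in how their promoters were placed. Their windows overlapped another gene's window in 17.7% of cases, against 36.3% of all genes. Among genes without such overlap, 20 of 116 members (17.2%) had a pooled region, against 40.3% of all genes. Among genes with 1 annotated 5' end, 18 of 111 members (16.2%) had one, against 38.4%.

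Summits at peptide genes lay somewhat farther from the 5' end than those of genes at large, as a description. The median position was 356 bp upstream over 23 members and 233 bp upstream over 8994 genes. Within 300 bp upstream lay 8 of the 23 summits (34.8%, against 46.03% of all genes with a region). Upstream of the 5' end lay 20 summits (86.96%, against 87.7%), and 13 lay outside protein-coding genes (56.5%, against 66.5%). In a window shared with another protein-coding gene lay 3 summits, those of nlp-4, nlp-40 and nlp-17. The share of all genes for this count is not given here, and windows overlapped another gene's in 17.7% of all members.

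**Figure D4:**
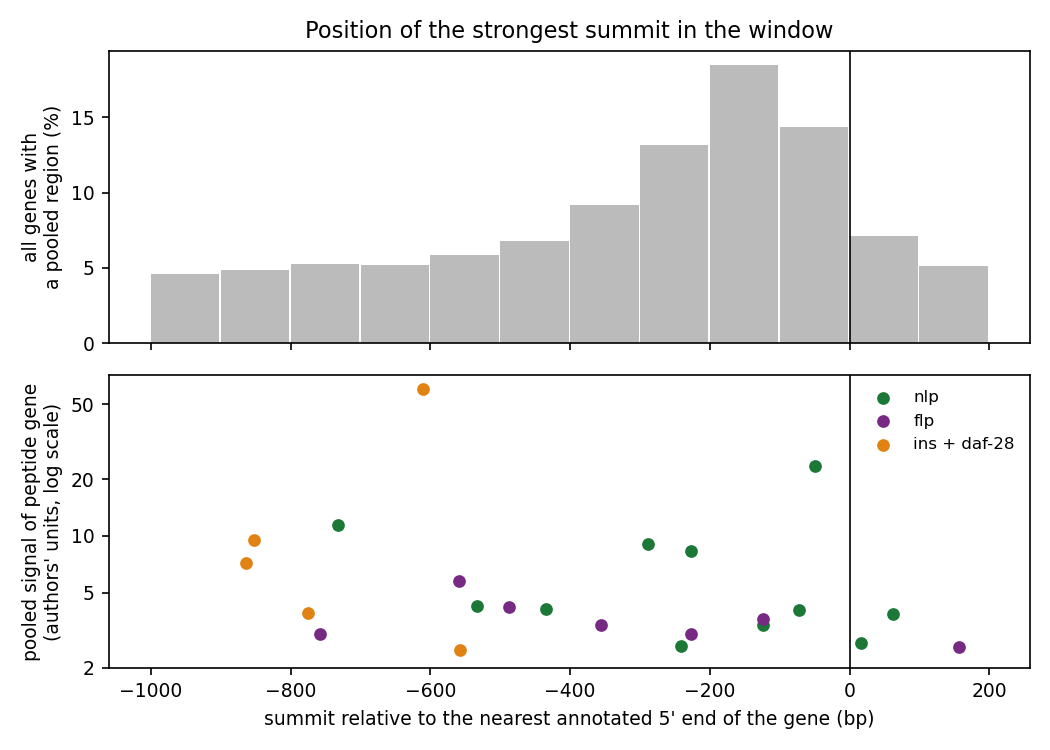
Top, position of the strongest pooled summit relative to the nearest annotated 5' end (bp, upstream negative) as a share (%) of the 8994 protein-coding genes with a region. Bottom, the same position for the 23 peptide genes against their pooled signal (log scale, authors' units), with ins-39 at 610 bp upstream and nlp-4 at 49 bp upstream as the strongest 2 points.

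The forkhead-type sequence that PHA-4 can bind stood at few of these summits, a share near that of all pooled summits. It was searched on both strands within 50 bp of the summit, as TGTTTAC and as TGTTTGC, and likewise in the forms TATTTAC and TATTTGC. None of these words holds the GATA-type TGATAA. It was present at 2 of 23 member summits (8.70%), nlp-4 and nlp-40, against 24.1% of IDR summits, 21.5% of the strongest 6000 and 11.8% of all pooled summits. No such match is in the ins-39 window printed above, which says only that these letters are not there. TGATAA on either strand stood at 2 of 23 (8.70%), ins-12 and nlp-14, against 11.7% of all pooled summits. The whole promoter windows of peptide genes did hold the forkhead-type sequence, in 72 of 141 cases (51.1%), against 59.9% of all genes. The shares were 46.5% for nlp, 45.2% for flp and 64.1% for insulin-like genes. Of the 118 members without a pooled region, 51.7% had the sequence in the window, against 57.0% of all genes without one. Of the 23 members with a pooled region, 47.8% had it, against 63.4% of all genes with one.

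Strong regions did occur near some members but outside the promoter window. An IDR summit lay within 5000 bp of a 5' end in 16 members (11.3%, against 15.8% of all genes). In 11 of the 16 the region was in the promoter window of another protein-coding gene, such as that of signal 72.1 between ifet-1 and the ribosomal protein gene rps-1, which lay 1930 bp downstream of the 5' end of ins-17. A region of signal 54.3 near flp-20 lay in the window of oga-1. For 4 members it lay in no protein-coding promoter window. Behind ins-13 there were 2 such regions, at chrII:5543392-5543701 (49.8, with 31.3 in replicate 1 and 18.5 in replicate 2) and chrII:5543592-5543901 (28.9, with 16.3 and 14.9). Their summits were 1317 and 1117 bp downstream of its 5' end. A region of 29.4 at chrIV:9677688-9677997 (16.9 in replicate 1 and 13.8 in replicate 2) lay 4578 bp from the 5' end of ins-7 and 2908 bp from that of ins-8, in the downstream direction of both. No IDR summit lay within the body of any member, against 1.61% of all genes, whose median length was 2027 bp where that of members was 903 bp.

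Receptors for peptides also had few regions. Of 106 receptor genes of the npr, frpr, dmsr and related classes, 20 (18.9%, 11.9 to 27.6%) had a pooled region and 1 (0.943%) was among the strongest 6000. An IDR region was found for 0, with an exact interval up to 3.42%. The shares of all protein-coding genes in these 3 counts were 45%, 19.6% and 6.24%. The strongest receptor genes were trhr-1, a receptor of the thyrotropin-releasing hormone type (11.5, with 10.9 in replicate 1 and none in replicate 2), npr-15 (7.26, with 7.92 and none) and npr-23 (7.06, with none and 2.27). The median of the strongest signals of receptor genes was 3.60, beside 4.04 for the peptide genes.

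Genes that process peptides or pass on the insulin signal had a pooled region in larger shares than the ligand genes. The shares of all protein-coding genes were 45% for any pooled region, 19.6% for the strongest 6000 and 6.24% for the IDR list, and those of the 10756 with a gene name were 49.9%, 23.8% and 8.005%. Of 17 genes for peptide processing and release, 12 (70.6%, 44.04 to 89.7%) had a pooled region, 5 (29.4%, 10.3 to 55.96%) were among the strongest 6000 and 1 (5.88%, 0.149 to 28.7%) had an IDR region, with a median signal of 9.72. All 3 intervals include the shares of all genes. The strongest were ric-19, a dense-core vesicle gene (31.9, with 20.5 and 9.06 in replicates 1 and 2, in a window shared with pmlr-1), the prohormone convertase gene aex-5 (16.5, with 5.80 and 8.60) and the vesicle gene rund-1 (15.6, with 12.2 and 2.19). Of 17 genes for the insulin receptor and its pathway, 13 (76.5%, 50.1 to 93.2%) had a pooled region, 7 (41.2%, 18.4 to 67.1%) were among the strongest 6000 and 2 (11.8%, 1.46 to 36.4%) had an IDR region, with a median of 13.6. Here the intervals of the last 2 shares include those of all genes. The windows of this list were wider, with a median span of 1396 bp against 1201 bp for all genes. Of all genes with several annotated 5' ends, 62.6% had a pooled region, which lies within the interval of the first share. The strongest were the kinase gene akt-2 (57.97, with 37.996 and 19.6), daf-16, the FOXO factor at the end of the pathway (34.5, with 22.3 and 12.2), and par-5, which encodes a 14-3-3 protein (25.1, with 11.2 and 16.2). The receptor gene daf-2 had 2.62, at rank 28151. Both lists are small, and the difference between them and the ligand genes was not tested.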

How the data were processed

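ChIP-seq of eGFP-tagged PHA-4 was represented by region lists of 2 biological replicates and of both pooled, on ce11. Per the manifests deposited with the lists, each was made from alignments and a control, background was kept, and the IDR list was derived from the others. No source used here gives the caller, its version or the IDR cut-off. Library fragments were 150 to 350 bp per the labels. The authors deposited a signal, whose scale is not stated, a −log10 q value (by the column layout, capped) and a summit offset for each region; regions were ranked by signal. Genes came from Ensembl release 115 (WBcel235, the ce11 coordinates). The ce10 lists were not used. Depth is unknown, so no interval that needs it was computed.

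Summits were tied to promoter windows with Python 3.11.15, and exact binomial intervals came from SciPy 1.17.1. A replicate region matched a pooled one when the summits lay within 150 bp. Assignment was tested on regions placed at known positions. Genes named were members in the strongest 6000 regions, the 5 strongest of each family, the 3 strongest of each comparison list and neighbours sharing a region. Well-known members listed as having no strong region were also named. Others were named after their values were seen: flp-2, flp-14, nlp-14, nlp-17, nlp-36, flp-28, nlp-66, daf-2, ins-8, ins-17 and further genes near strong regions or in runs of neighbours. The members and lists were chosen with earlier results of these data known. In the list for processing and release, rab-2 matched no gene name.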

Additional observations from a re-analysis of the deposited data

How the results depend on the processing

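The share of members lay below that of all protein-coding genes at all 30 combinations of depth and setting compared. Counts of members followed the window. From 500 bp upstream to 100 bp downstream, 0 members had an IDR region, 1 was among the strongest 6000 and 14 had any pooled region (9.93%, against 35.3% of all genes). At the IDR depth and at 6000 the shares of all genes were 5.10% and 15.4%. From 2000 bp upstream to 500 bp downstream, the member counts were 2, 7 and 45 (31.9%, against 56.5%). The shares of all genes at the IDR depth and at 6000 were then 8.19% and 24.8%. The strongest 10000 regions reached 6 members (4.26%, against 26.6% of all genes). Leaving out each replicate in turn gave 1 member with a region at the IDR depth each time, 4 at the depth of 6000 each time, and 11 to 20 with any region. The shares of all genes in these counts were 5.91%, 18.3% and 37% without replicate 2. Without replicate 1 they were 6.04%, 18.7% and 37.5%. Assignment to the nearest 5' end alone, overlap with the window, the stronger part of the IDR list and the strongest 3000 regions moved no such count of members by more than 1.5 times. The restrictions to genes with 1 annotated 5' end or without overlapping windows, chosen after the data were seen, moved none either. Family counts, which are small, moved in 18 of 63 cases. With summits matched within 50 bp, 2 of the 3 members in the strongest 6000 had a region in both replicates. No paired analysis was possible because there is 1 group. Unknown depth limits how far an absent region can be read.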

Other observations

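Of 10 genes for other secreted signals outside the peptide families, 3 had a pooled region (30%, 6.67 to 65.2%), against 45% of all protein-coding genes. Among the strongest 6000 there was 1 (10%, 0.253 to 44.5%), against 19.6%, and 0 had an IDR region (exact interval up to 30.8%), against 6.24%. All these intervals and limits include the share of all genes. They were tig-2, a transforming growth factor beta ligand (12.03, with 4.80 in replicate 1 and 4.22 in replicate 2), the related ligand gene unc-129 (3.58) and the neuromedin-type peptide gene capa-1 (2.81). Of 9 caenacin genes, which encode antimicrobial peptides of the epidermis, 2 had a pooled region, cnc-2 (2.79) and cnc-3 (2.68). None of the 9 was among the strongest 6000.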
